A study of Mus musculus with 32 samples.

Results

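Gene-end regions were the stretches of open chromatin within 1 kb of either end of a protein-coding gene model in haematopoietic stem and progenitor cells (HSPCs) of the mouse. Open chromatin was mapped by ATAC-seq, in which a transposase inserts adapters into exposed DNA, and each biological replicate had 1 deposited list of peaks. Each of the 16 lists was cut to its 19100 strongest autosomal peaks, the number that the shortest list holds, and overlapping peaks were merged over the lists into 31846 regions. Of these, 23554 had a peak in at least 3 lists and were tested, and 10002 of them (42.5%) were gene-end regions on the GRCm38 build with RefSeq gene models. The rule used position and the number of lists with a peak. It used neither the injection nor the leukaemia history of the mice, but a region could reach 3 lists through 1 injection alone.

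The mice were lethally irradiated C57BL/6J recipients (CD45.2) of a mixed marrow graft of 200000 test cells and 800000 wild-type cells. In AF9-experienced mice the test cells came from iMLL-AF9 donors (CD45.1) homozygous for rtTA and for hMLL-AF9, a fusion oncogene that doxycycline switches on. In naive mice they came from CD45.1 donors that lacked hMLL-AF9 and carried rtTA. After 6 to 8 weeks of engraftment, 5 weeks of doxycycline were followed by 4 weeks without it, which puts the leukaemia into remission. The labels do not say separately whether the naive mice had the same doxycycline course. PBS or LPS, a bacterial lipopolysaccharide, was then injected and the marrow was taken 24 hours later. The sorted HSPCs were the wild-type graft's own cells (CD45.1+/2+, Lin-, cKit+, Sca1+) in every group, so no sorted cell carried the fusion by its donor's genotype. Naive mice gave 4 lists after PBS and 3 after LPS, and AF9-experienced mice 4 and 5. The LPS dose, the promoter of rtTA, the age and sex of the animals, and any pooling of animals are not given in the labels. Both Omni-ATAC and a Chromium kit are named there, and the lists do not show which made them.

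A gene's start is where RNA polymerase II and the general factors assemble, on DNA that is held free of nucleosomes. Starts that are rich in CpG dinucleotides tend to be open in many cell types, whereas much of the chromatin that differs between cell states lies at enhancers away from the starts. LPS is sensed by TLR4, which acts through NF-kB, AP-1 and interferon regulatory factors on inflammatory genes. HSPCs are known to answer such signals, directly or through cytokines of other cells, by entering the cell cycle and making more myeloid cells.

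Strength was expressed as a percentile rank within each cut list, from 100 for the list's strongest peak by the authors' -log10 p to 0 where a region had no peak among the 19100 strongest of that list. The full lists hold up to 88816 peaks, so 0 does not mean that the chromatin was closed. A rank gives the position of a region relative to the other peaks of its list and not an amount of open chromatin. In bulk samples, fewer cells with a region open and less signal per cell cannot be told apart. Replicates are labelled as biological, and p-values measure the spread between these lists.

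The sequences below are the upstream 5' flanks, on the gene's own strand, of 7 gene-end regions that the results turn on. Cxcl10, Atf3 and Birc3 are inflammatory genes that rose after LPS, H3c8 and H2bc14 are histone genes that rose, Sla2 fell, and Pkn2 was the strongest region over all lists. They come from RefSeq (GRCm38.p6), with bases removed where the 250-base window ran into a model of the same gene or of a histone gene. Bases inside models of other genes were kept. Capitals mark matches, on either strand, to 12 motifs searched: the GC box GGGCGG, the AP-1 site TGANTCA, the cyclic AMP element TGACGTCA, the CCAAT box CCAAT, the TATA box TATAAA, the E-box CACGTG, the interferon response element (GAAA, any 2 bases, GAAA), the PU.1 core GAGGAA, the ETS core CCGGAA, the NF-kB site (GGGA, any 2 bases, TTCC), the NRF1 site (GCGC, any base, TGCGC) and the octamer ATTTGCAT. The octamer was added after the values were seen. Cxcl10 is at chr5:92348890-92349139 (minus strand), Atf3 at chr1:191183334-191183583 (minus), Birc3 at chr9:7873206-7873420 (minus), H3c8 at chr13:23535168-23535417 (plus), H2bc14 at chr13:21721802-21722043 (plus), Sla2 at chr2:156887251-156887471 (minus) and Pkn2 at chr3:142882005-142882254 (minus).
Cxcl10: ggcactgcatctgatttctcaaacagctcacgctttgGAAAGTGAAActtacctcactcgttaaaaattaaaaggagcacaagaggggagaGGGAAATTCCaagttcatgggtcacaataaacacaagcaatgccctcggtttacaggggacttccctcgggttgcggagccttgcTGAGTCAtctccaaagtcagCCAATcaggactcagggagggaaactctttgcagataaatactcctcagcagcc
Atf3: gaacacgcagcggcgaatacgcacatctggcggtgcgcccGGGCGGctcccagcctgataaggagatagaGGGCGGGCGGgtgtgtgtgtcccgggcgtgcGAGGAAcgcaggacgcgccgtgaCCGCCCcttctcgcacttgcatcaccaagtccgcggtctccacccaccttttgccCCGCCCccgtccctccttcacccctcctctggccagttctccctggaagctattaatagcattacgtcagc
Birc3: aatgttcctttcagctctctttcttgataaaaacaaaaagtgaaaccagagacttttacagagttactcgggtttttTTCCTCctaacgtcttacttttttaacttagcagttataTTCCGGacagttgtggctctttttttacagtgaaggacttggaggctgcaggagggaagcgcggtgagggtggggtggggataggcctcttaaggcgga
H3c8: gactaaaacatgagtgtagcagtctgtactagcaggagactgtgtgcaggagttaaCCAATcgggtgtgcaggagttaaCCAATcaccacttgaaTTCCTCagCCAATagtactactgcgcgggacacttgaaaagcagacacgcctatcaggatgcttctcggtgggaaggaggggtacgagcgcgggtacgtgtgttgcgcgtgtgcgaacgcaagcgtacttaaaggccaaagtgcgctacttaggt
H2bc14: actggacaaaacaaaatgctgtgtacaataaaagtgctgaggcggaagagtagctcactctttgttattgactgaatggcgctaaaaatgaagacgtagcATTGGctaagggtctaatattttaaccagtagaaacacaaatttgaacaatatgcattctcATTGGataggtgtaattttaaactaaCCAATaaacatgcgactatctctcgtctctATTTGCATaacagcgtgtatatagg
Sla2: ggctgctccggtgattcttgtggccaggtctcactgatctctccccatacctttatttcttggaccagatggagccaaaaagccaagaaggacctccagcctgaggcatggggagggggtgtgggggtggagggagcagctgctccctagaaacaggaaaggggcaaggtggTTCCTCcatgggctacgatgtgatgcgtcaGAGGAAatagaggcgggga
Pkn2: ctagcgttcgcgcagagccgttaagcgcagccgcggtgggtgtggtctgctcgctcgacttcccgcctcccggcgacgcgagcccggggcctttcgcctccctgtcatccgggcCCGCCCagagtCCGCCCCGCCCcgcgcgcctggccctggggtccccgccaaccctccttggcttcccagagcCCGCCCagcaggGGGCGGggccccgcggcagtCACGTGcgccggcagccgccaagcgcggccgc

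The Cxcl10 flank held 1 match each to the interferon element, the NF-kB site, the AP-1 site and the CCAAT box. The Atf3 flank held 5 GC boxes and 1 PU.1 core, and that of Pkn2 5 GC boxes and 1 E-box. Each of the histone flanks held 3 CCAAT boxes, and that of H2bc14 held 1 octamer as well. In the Birc3 flank there were 1 PU.1 core and 1 ETS core, and the Sla2 flank held 2 PU.1 cores. A match is a description of the letters and not a site of binding.

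Gene-end regions were stronger and more widely shared between lists than other open regions. A peak was present in all 16 lists at 73.0% of the 10002 gene-end regions and at 26.9% of the 13552 other tested regions. The median of the mean percentile was 66.1 at gene ends and 17.2 elsewhere, and the median width was 1164 bp against 807 bp. A wide merged region can gather peaks from more lists, and the part of width in these shares was not tested. The strongest gene-end regions were the starts of Pkn2 (a protein kinase), Tsga10, Usp20 with BC005624, Ralgapa2 and Rad23b (a DNA repair and proteasome shuttle factor). The Pkn2 region, chr3:142881073-142882728, lay between the 99.6 and the 100 percentile in every list.

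The rule itself placed these regions near model ends, so the summit positions are a description. Over gene-end regions tied to a start of known strand, the authors' peak summit lay a median of 20 to 35 bp upstream of the model's start, depending on the list. Between 82.6% and 86.9% of these summits were within 250 bp of the start, over 6554 to 7103 summits per list, and 57.4% to 65.7% were on the upstream side. The plot of summit positions shows a main mode just upstream of the start in each of the 4 groups, and a small second rise from 200 to 250 bp downstream of it.

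**Figure D1:**
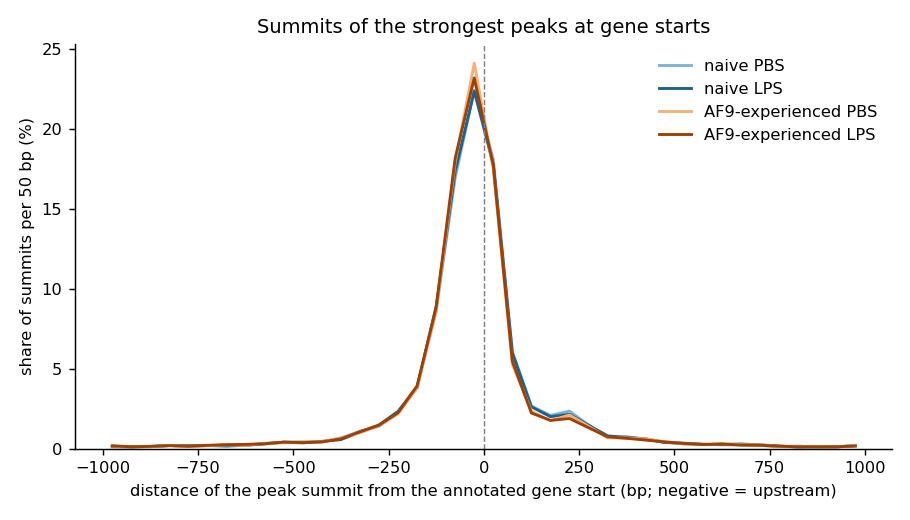
Share of peak summits (%, per 50 bp) by distance of the summit from the gene model's start (bp, negative upstream) at gene-end regions tied to a start of known strand, 1 line per group of lists. The 4 lines nearly coincide and peak just upstream of the start, with a small second rise from 200 to 250 bp downstream. The list medians lie between -35 and -20 bp.

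Starts and finishes of gene models differed in strength. The 7632 regions tied to a start had a peak in all lists in 77.5% of cases and a median percentile of 70.1. The 468 regions tied to a finish alone had 27.6% and 18.7, close to the values of regions away from gene ends (26.9% and 17.2). For 1902 regions the strand of the model was not given, and their values lay between (66.0% and 57.7). The 858 regions that held starts on opposite strands, the arrangement of bidirectional promoters, stood highest, with 92.3% in all lists, a median percentile of 80.6 and a median residual SD between replicates of 4.80 percentile points against 6.96 for all gene-end regions.

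CpG content went with strength. For 7401 gene-end regions the promoter sequence was at hand (300 bases, 250 before and 50 after the start). The 5884 with a CpG observed-to-expected ratio of at least 0.6 had a median percentile of 75.03 and were in all lists in 83.4% of cases, and the 1517 below that ratio had 45.2 and 59.0%. Promoters with an NRF1 site, a CCAAT box or an ETS core had medians of 79.7, 77.7 and 75.5, against 69.4, 66.2 and 68.4 without the motif. Those with a TATA box had 60.6, against 71.3 without. The GC box occurred in 65.3% of the 7401 promoters and in 32.7% of all 32851 RefSeq mouse promoters, the ETS core in 23.7% and 12.03%, NRF1 in 9.24% and 3.74%, the E-box in 9.15% and 6.02%, and the cyclic AMP element in 3.13% and 1.55%. The CCAAT box (36.9% and 33.8%), the PU.1 core (21.6% and 23.3%), the NF-kB site (1.11% and 1.21%), the interferon element (2.53% and 2.98%) and the octamer (1.41% and 1.601%) were at similar shares in both. The AP-1 site (3.55% and 6.75%) and the TATA box (5.43% and 12.4%) were less frequent at gene ends open in HSPCs.

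At the edges of the rule, 96 gene-end regions lay within the last 100 bp inside the limit of 1000 bp from a model end, with a median percentile of 21.6, and 129 regions in the next 100 bp outside it had 32.9. The 205 gene-end regions in exactly 3 lists had a median of 2.55, and 362 further ones in exactly 2 lists, which were not tested, had 1.499. Of the other tested regions, 924 (6.82%) held a RefSeq start from the promoter table that belongs to a protein-coding gene used here. These starts lie away from the ends of the gene models.

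Gene-end regions kept their rank in every list. Between 85.4% (naive PBS 1) and 93.7% (naive PBS 2) of them had a peak, against 49.9% to 71.4% of the other regions. Their median percentile was 63.3 to 69.1 per list, against 0 to 23.3, so gene ends stood above the other regions in 16 of 16 lists. Ranked by fold enrichment, their medians were 27.7 to 52.8 in the 6 longer PBS lists, 65.4 and 63.3 in naive PBS 1 and AF9-experienced PBS 1, and 55.2 to 67.3 in the LPS lists, against 0 to 25.7 for the other regions. The share with a peak was 91.1% ± 1.86 (SD, n = 3) in naive LPS and 90.8% ± 3.73 (n = 4) in naive PBS lists. It was 89.5% ± 2.45 (n = 5) in AF9-experienced LPS and 90.9% ± 1.69 (n = 4) in AF9-experienced PBS lists. None of the 4 group comparisons of this share passed an exact two-sided permutation test (p = 0.341 to 0.971, adjusted over the 4 comparisons 0.750 to 0.971), nor did those of the median percentile (p = 0.250 to 0.771, adjusted 0.648 to 0.771) or of the median distance from summit to model end (p = 0.429 to 1, adjusted 1). The smallest p these designs allow is 0.00794 to 0.0286.

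**Figure D2:**
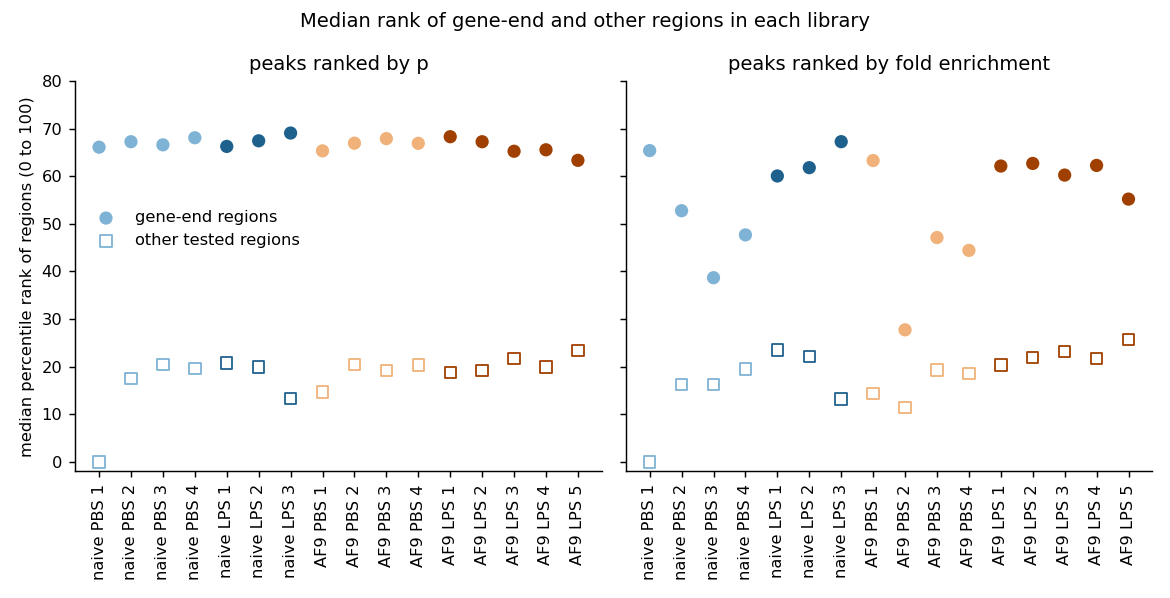
Median percentile rank (0 to 100) of gene-end regions (filled circles) and of other tested regions (open squares) in each of the 16 lists, coloured by group (AF9 stands for AF9-experienced), with peaks ranked by -log10 p at the left and by fold enrichment at the right. By -log10 p the gene-end medians lie between 63.3 and 69.1. By fold enrichment they spread from 27.7 to 67.3, with the longer PBS lists lowest.

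Of the whole set of lists, 3 were much shorter than the rest (AF9-experienced PBS 1, naive LPS 3 and naive PBS 1, with 19448 to 39464 peaks against 60841 to 88816). The median fold enrichment of the other lists was 13.9 to 19.4 in the PBS lists and 9.16 to 13.6 in the LPS lists, so this measure of signal moved with the injection, and its part in the results below was not tested beyond the covariate fit named there. Of 11 HSPC markers, 8 had a gene-end region, 6 of them in all lists, and their mean percentile ranged from 31.0 to 37.5 over the lists. None of 7 markers of mature granulocytes had one. Monocyte-macrophage markers had a gene-end region for 3 of 5 genes, with none at Csf1r or Ccr2, and their mean percentile was 4.16 to 9.24 in the PBS lists and 9.70 to 16.3 in the LPS lists.

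LPS changed the rank of gene ends in both directions. With both backgrounds averaged, limma called 329 of 10002 gene-end regions higher after LPS (3.29%) and 276 lower (2.76%) at a Benjamini-Hochberg adjusted p under 0.05. Over all 23554 tested regions the shares called were 7.18% higher and 5.45% lower, and over the 13552 other regions 10.0% and 7.43%, so by this ranking a gene end was less often called than the background. The median change of the called regions was 14.7 percentile points upward (median SE 3.87) and -16.7 downward (median SE 4.66). Of the regions called higher, 29 had no peak in any of the 8 cut PBS lists, and of those called lower 17 had none in any of the 8 cut LPS lists. Such regions reached the 3-list minimum only through the injection in which they stood higher, so their p-values are descriptions. In the full lists, all 29 had a peak in at least 1 PBS list (median 6 of 8), and all 17 in at least 1 LPS list, 9 of them in all 8. A peak in all 16 cut lists was kept by 210 of the rising and 164 of the falling regions. On presence of a peak in the full lists, or at a -log10 q of at least 5, limma called 0 gene ends higher and 0 lower.

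The counts moved with single lists. Without naive LPS 2, 208 gene ends were called higher. Those called lower numbered 168 without AF9-experienced PBS 3 or without naive LPS 1, 174 without AF9-experienced PBS 4, 177 without naive LPS 2 and 424 without naive PBS 1. Without the 3 shortest lists, 773 were called higher and 801 lower, and with the median fold enrichment as a covariate 536 and 370. Library weights gave 1009 and 1159, lists of 9550 peaks 146 and 101, and a required overlap of 50% of the region 66 and 46. Of the gene ends named below, those of E2f1, Kdr, Hoxa7, Bcl3, Isg20 and Tapbp lost their call for this mean effect without the 3 shortest lists, and those of Tnf, Hoxa10, Prdm16, Cd2 and Nfe2 with the covariate. When peaks were ranked by fold enrichment in place of -log10 p, 1896 gene ends were called higher and 291 lower, so that 86.7% of the calls were upward against 54.4% by -log10 p. That ranking moved the median difference of all gene ends from -0.14 to 5.61 and that of all tested regions from -0.11 to 2.09, and over all tested regions it called 15.1% higher and 6.7% lower. By that ranking a gene end was more often called higher than another region (19.0% against 12.3%) and less often lower (2.91% against 9.50%).

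By -log10 p rank, the share of calls was lower at gene ends at each level of strength. These bins were not run for fold-enrichment ranks, by which gene ends were more often called higher. Among regions with a mean percentile of 20 to 40, 9.75% of 1139 gene-end regions and 26.6% of 2760 other regions were called in either direction. The shares were 8.02% and 15.2% below 20, 5.11% and 19.6% from 40 to 60, 5.78% and 11.0% from 60 to 80, and 4.37% and 6.43% above 80. The spread between replicates (median residual SD) was 10.4 at gene ends and 9.21 at other regions below 20, and 13.7 and 13.7 from 20 to 40. It was 10.1 and 10.8 from 40 to 60, 6.47 and 7.11 from 60 to 80, and 3.60 and 3.86 above 80. The median size of the LPS difference was smaller at gene ends: 7.26 against 11.8 points from 20 to 40, and 4.90 against 7.87 from 40 to 60. Gene finishes were called more often (31 higher and 37 lower of 468, 14.5%) than starts (244 and 175 of 7632, 5.49%), and promoters of low CpG ratio more often (8.70%) than those of high ratio (4.42%). Finishes were also weaker than starts (median percentile 18.7 against 70.1), and low-ratio promoters weaker than high-ratio ones (45.2 against 75.03). These contrasts were not split by strength. These shares are descriptions over regions, which share lists and are not replicates.

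**Figure D3:**
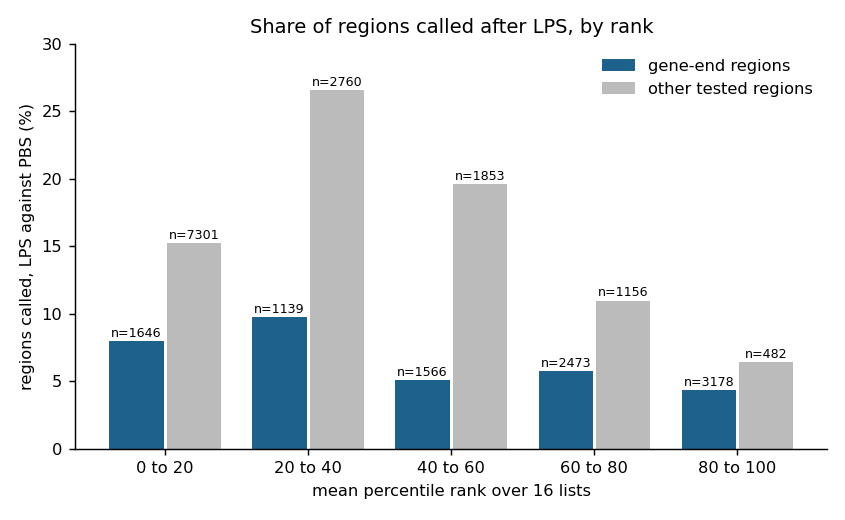
Percentage of regions called at adjusted p under 0.05 for LPS against PBS by -log10 p rank, in 5 bins of mean percentile rank, for gene-end regions and other tested regions, with the number of regions above each bar. The gene-end share is the lower one in each bin, with the widest gap from 20 to 40 (9.75% and 26.6%).

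Among the gene ends with the smallest p-values for a rise were the start of Mt1 and several stretches with no peak among the 19100 strongest of any PBS list. The latter reached the 3-list minimum through LPS lists alone. Mt1 encodes a metallothionein, a small zinc-binding protein of the acute phase and stress response. Its region, chr8:94178808-94180064, overlaps the gene's start and stood at 62.2, 54.5, 48.8 and 58.5 in the naive PBS lists, 90.9, 86.5 and 86.1 in naive LPS, 74.2, 48.0, 60.1 and 57.6 in AF9-experienced PBS, and 94.8, 93.6, 91.5, 91.7 and 88.0 in AF9-experienced LPS. Every LPS list was above every PBS list, and the difference was 31.9 points (SE 3.13, limma with Benjamini-Hochberg adjustment, adjusted p = 1.31e-06).

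Gene ends with no peak in any cut PBS list included those of Ceacam19 (chr7:19876403-19877522, 661 bp from the gene's finish), Rpp25 (chr9:57505563-57506235, 116 bp from the finish) and Clec2i (chr6:128888582-128889324, 995 bp from the start). In the full lists, 7, 6 and 7 of the 8 PBS lists had a peak there. The 8 LPS lists gave 40.7 to 55.7 at Ceacam19, a cell adhesion family member, 38.8 to 63.8 at Rpp25, a subunit of RNase P, and 19.9 to 61.5 at Clec2i, a C-type lectin. Slc17a4 (631 bp from an end, strand not given), Ccdc97 and Traip (both on the finish side), Gbx1 and C1s2 rose by 42.8 to 62.7 points, with peaks at or under 25.3 in all PBS lists. Slc17a4 showed the largest of these rises, 62.7 points (SE 4.93, limma adjusted p = 2.92e-07). At Cep70, a centrosomal protein, the start-side region chr9:99182080-99182996 rose by 36.8 points (SE 4.71, limma adjusted p = 1.80e-05), from 22.8 to 68.0 in PBS lists to 70.1 to 85.6 in LPS lists. By fold enrichment the rise at Ccdc97 was 3.73 points (limma adjusted p = 0.337) and that at Traip 9.77 (adjusted p = 0.098).

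Among the gene ends that fell, 4 with a peak in every cut PBS list are described here that had none in any of the 8 cut LPS lists. Clcf1, a cytokine of the IL-6 family, had 33.7, 55.1, 56.4 and 58.2 in naive PBS lists and 42.4, 43.3, 51.0 and 54.0 in AF9-experienced PBS lists at chr19:4221274-4222908, 597 bp from an end, and 0 in every cut LPS list. In the full lists Clcf1 had a peak in 8 of 8 PBS and 8 of 8 LPS lists. Ranks of 0 in every cut LPS list were also found at Nap1l4, a histone chaperone (28.9 to 48.1 in PBS lists), at the finish of Gsg1 and Fam234b (17.5 to 50.9), and at the finish of Il6ra, the IL-6 receptor's alpha chain (11.0 to 58.4). In the full lists these had a peak in 8, 7 and 7 of the 8 LPS lists. Their differences were -49.3 (SE 5.19), -38.0 (SE 4.66), -41.1 (SE 5.10) and -30.7 (SE 5.64), with limma adjusted p from 2.56e-06 to 8.55e-04. All 4 regions reached the minimum number of lists through PBS lists alone, so these p-values are descriptions. By fold enrichment none of these 4 passed (limma adjusted p = 0.237 to 0.421), with differences of -5.49 to -9.96.

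Sla2 encodes an adaptor that dampens antigen receptor and cytokine receptor signalling. Its start, chr2:156886238-156887630, stood at 69.2, 62.0, 65.8 and 58.4 in naive PBS, 21.1, 0 and 24.9 in naive LPS, 75.4, 65.2, 66.8 and 64.0 in AF9-experienced PBS and 0, 21.6, 19.9, 26.1 and 4.83 in AF9-experienced LPS lists. All LPS values were below all PBS values, by 50.9 points on average (difference -50.9, SE 5.41, limma adjusted p = 2.70e-06). By fold enrichment the difference was -23.0 (limma adjusted p = 0.114). Cabp1, Poll (a DNA polymerase of repair), and Zfp467 with Sspo fell by 40.3, 38.4 and 33.1 points.

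**Figure D4:**
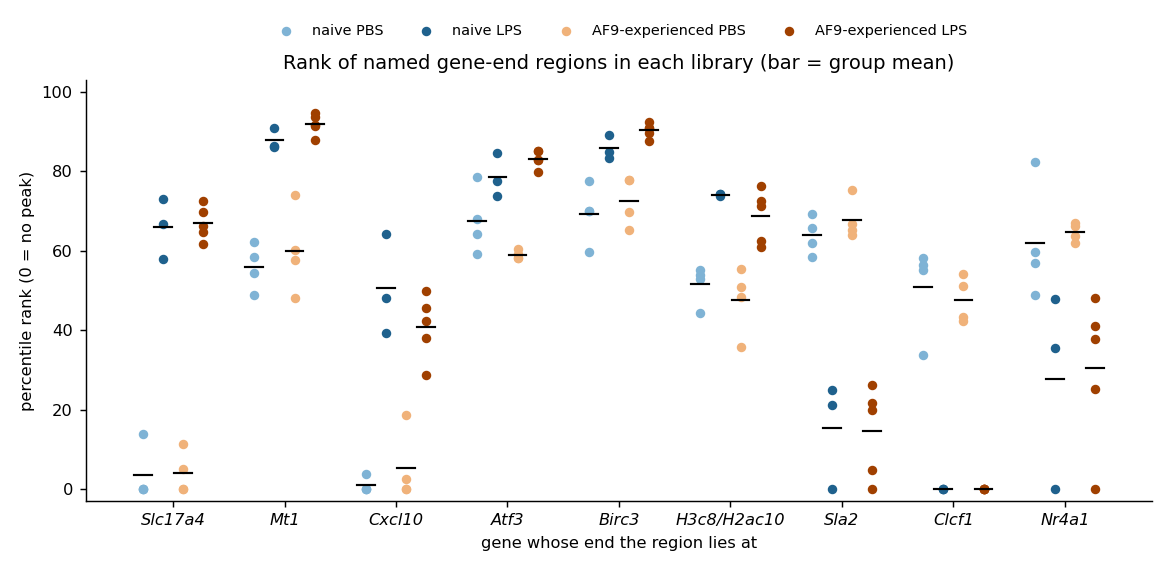
Percentile rank (0 is no peak among the 19100 strongest) in each of the 16 lists at 9 gene-end regions described in the text, coloured by group, each point 1 list and each bar a group mean. Slc17a4, Mt1, Cxcl10, Atf3, Birc3 and H3c8 with H2ac10 stand higher after LPS, and Sla2, Clcf1 (0 in all 8 cut LPS lists) and Nr4a1 lower.

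Cxcl10, Ccl2 and Tnf with Lta were called higher. Counts of list members called are read against the 3.29% of all gene ends called higher and 2.76% called lower. Cxcl10 encodes a chemokine induced by interferon and NF-kB, and its start, chr5:92348343-92349140, also lies inside the Art3 model. It stood at 0, 0, 0 and 3.78 in naive PBS, 64.3, 39.3 and 48.0 in naive LPS, 0, 18.7, 2.55 and 0 in AF9-experienced PBS and 49.8, 42.3, 45.6, 38.1 and 28.8 in AF9-experienced LPS lists. The groups did not overlap by injection, and the difference was 42.6 points (SE 5.54, limma adjusted p = 2.23e-05). Ccl2, the monocyte chemoattractant, gave 16.7 to 40.3 in PBS lists and 43.9 to 57.1 in LPS lists (difference 17.4, SE 4.76, limma adjusted p = 0.0179). The shared region of Tnf and Lta rose by 16.8 points (SE 4.80, limma adjusted p = 0.0234), but the call was lost without naive LPS 1 (adjusted p = 0.0551), naive LPS 2 (0.0587), AF9-experienced PBS 2 (0.0520) or AF9-experienced PBS 4 (0.0509), and the difference was -7.09 where a peak had to cover 50% of the region.

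Birc3 and Bcl3 were called higher too. At the start of Birc3, an inhibitor of apoptosis induced by NF-kB (chr9:7872498-7873310), the values were 59.6 to 77.8 in PBS lists and 83.3 to 92.3 in LPS lists, with a difference of 17.1 (SE 2.54, limma adjusted p = 9.63e-05). Bcl3, an atypical IkB protein, was called higher by 14.8 points, a call lost without naive PBS 3 (adjusted p = 0.0642), naive LPS 2 (0.0588), naive LPS 3 (0.0771) or AF9-experienced LPS 3 (0.05). Of the 37 genes of the NF-kB and TLR list, 29 had a gene-end region, of which 4 genes were called higher (Birc3, Ccl2, Tnf and Bcl3) and 0 lower. The list's median difference was 1.78 points, beside -0.14 over all gene ends. By fold enrichment 10 of its 37 regions were called higher and its median was 12.8, where 19.0% of all gene ends were called higher and their median was 5.61. The housekeeping controls had a median of 2.51 by -log10 p and 25.8 by fold enrichment, both above this list's.

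The interferon-stimulated list had a gene-end region for 33 of 45 genes, with 2 called higher (Cxcl10 and Isg20), 0 lower and a median difference of 0.12. The Isg20 call (17.8 points) was lost when any 1 of 10 lists was left out, with an adjusted p of up to 0.108, without naive LPS 1. Antigen presentation genes had 14 of 16, with H2-D1 (8.22 points, SE 2.15) and Tapbp (22.4 points, in a region shared with Zbtb22) called higher and 0 lower. The H2-D1 call was lost without naive LPS 1 (adjusted p = 0.0534), and that of Tapbp without naive LPS 1 (0.0532) or naive LPS 3 (0.0529). Where a peak had to cover 50% of the region, the Tapbp difference was -3.57.

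Immediate early genes moved in both directions. Of the 30 genes of the AP-1 and immediate early list, 29 had a gene-end region, 4 were called higher (Atf3, Junb, Fosb and Klf6) and 2 lower (Nr4a1 and Nr4a2), with a list median of 2.90 points. By fold enrichment 4 regions of the list were called higher and 0 lower, and its median was -0.80. The start of Atf3, a stress-induced repressor of the ATF family (chr1:191182394-191183980), had 78.6, 59.3, 64.3 and 68.0 in naive PBS, 77.5, 84.7 and 73.8 in naive LPS, 60.5, 58.3, 59.2 and 58.3 in AF9-experienced PBS and 85.1, 85.2, 83.0, 82.9 and 79.8 in AF9-experienced LPS lists. The difference was 17.7 points (SE 2.80, limma adjusted p = 0.000195), and the naive groups overlapped while the AF9-experienced groups did not.

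Junb, an AP-1 subunit, had 2 gene-end regions that rose: chr8:84979594-84980442, 846 bp from its start, by 31.9 points (SE 6.72, limma adjusted p = 0.00294), and the one it shares with Prdx2 at its finish, by 13.9 (SE 3.41, limma adjusted p = 0.00894). In the first, 2 PBS lists stood among the LPS lists, naive PBS 1 at 48.6 and AF9-experienced PBS 1 at 46.2, while the other PBS lists gave 7.31 to 17.3. Both are among the 3 shortest lists. Fosb rose by 14.4 points (SE 3.81, limma adjusted p = 0.0147). By fold enrichment the differences turned to -1.06 at the first Junb region and -1.89 at Fosb. Nr4a1, an orphan nuclear receptor known to restrain HSC proliferation and inflammation, fell at its start (chr15:101253717-101254688) by 34.3 points (SE 7.27, limma adjusted p = 0.00307). PBS lists gave 48.8 to 82.3 and LPS lists 0 to 48.0, so the groups did not overlap. By fold enrichment this difference was -5.71 (limma adjusted p = 0.677).

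In the IL6-STAT3 list, with 16 of 19 genes represented, the feedback inhibitor Socs3 was called higher (12.3 points, SE 2.86, limma adjusted p = 0.00623) and the receptor gene Il6ra lower, and the list's median was -0.32. By fold enrichment 5 of its 17 regions were called higher and 0 lower, with a median of 17.7. PBS lists gave 62.0 to 73.8 at Socs3 and LPS lists 66.4 to 85.6. The lowest LPS value, 66.4 in naive LPS 3, was within the PBS range.

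For stem-cell and leukaemia-program genes the sign of the list medians depended on the ranking. The median over all gene ends also moved, from -0.14 by -log10 p to 5.61 by fold enrichment. By fold enrichment 19.0% of all gene ends were called higher and 2.91% lower. In the list of genes of the MLL-AF9 program, 14 of 19 had a gene-end region, with 0 called higher and 3 lower: Flt3, Hoxa10 and Hoxa7, and a median of -1.80. At Flt3, a cytokine receptor of multipotent progenitors, PBS lists gave 85.7 to 93.0 and LPS lists 74.8 to 88.1, a difference of -7.41 (SE 1.74, limma adjusted p = 0.00649) that became 19.0 by fold enrichment. Hoxa10, a homeobox gene of self-renewal, fell by 28.8 points, a call lost without naive LPS 2 (adjusted p = 0.0526). The Hoxa7 call (-19.3) was lost when any 1 of 8 lists was left out, with an adjusted p of up to 0.0708, without naive LPS 3. By fold enrichment 2 regions of this list were called higher and 1 lower, with a median of 5.26. HSC identity genes had 18 of 28, with Prdm16 called lower, 0 higher and a median of -0.79. By fold enrichment 1 region of this list was called higher and 0 lower, with a median of 4.72. The Prdm16 call was lost when any 1 of 8 lists was left out (adjusted p up to 0.125, without naive LPS 1). Of 20 lymphoid priming genes 9 had a gene-end region. Flt3 and Notch1 were called lower and Igll1 higher (26.8 points, SE 5.78, limma adjusted p = 0.00349), with a median of -3.77. By fold enrichment 0 were called either way, with a median of 9.07. The Notch1 difference of -14.4 was not called without naive LPS 1 (adjusted p = 0.0604) and was 12.6 by fold enrichment. None of the 6 granulocyte-monocyte progenitor genes with a gene-end region, of 17 listed, was called by limma in either direction.

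Of the 23 gene lists, the replication-dependent histones had the most genes called. These genes lie in tight clusters, are transcribed in S phase and make the histones that package new DNA. Of 62 listed genes 37 had a gene-end region, in 25 regions, and 14 genes in 7 regions were called higher and 0 lower. The median difference of the 25 regions was 9.42 points, beside -0.14 over all gene ends, and 24 of 25 differences were positive.

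The largest called difference of a histone region was at H3c8 and H2ac10, a divergent pair of an H3 and an H2A gene at chr13:23534874-23535773. It gave 53.9, 44.3, 52.8 and 55.0 in naive PBS, 74.3, 74.4 and 73.7 in naive LPS, 35.6, 50.9, 48.4 and 55.5 in AF9-experienced PBS, and 71.3, 72.6, 62.4, 61.1 and 76.3 in AF9-experienced LPS lists. No LPS list overlapped the PBS lists, and the difference was 21.9 points (SE 3.70, limma adjusted p = 3.90e-04). By fold enrichment it was 5.25 (limma adjusted p = 0.609). H3c4 with H2ac7 rose by 19.7 points from 0 in all cut PBS lists (6 of 8 full ones had a peak), H2bc14 by 14.4 and H2ac12 with H2bc12 by 12.5. The region of H3c4 with H2ac7 reached the 3-list minimum through LPS lists alone. The calls at H2ac4 with H3c2 (16.8 points), H2ac8 with H2bc8 (16.6) and H4c1 with H3c1 and H1f1 (10.2) were lost when any 1 of 10, 9 and 12 lists was left out, with adjusted p up to 0.0975 and 0.133, both without naive LPS 2, and 0.131, without naive LPS 3.

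The number of histone regions called ranged from 4 to 11 when single lists were left out. It was 4 without naive LPS 2, without naive PBS 2 or 3, without AF9-experienced LPS 2, or without AF9-experienced PBS 2, 3 or 4, 10 without naive PBS 1 and 11 without AF9-experienced PBS 1. The median difference stayed between 8.11 and 10.8 in these fits. Without the 3 shortest lists 15 regions were called, with fold-enrichment ranks and with the covariate 4 each (medians 8.56 and 5.91), and 0 where a peak had to cover 50% of the region. By fold enrichment 19.0% of all 10002 gene ends were called higher, with a median difference of 5.61. With the covariate 536 of all gene ends were called higher, with a median of 0.18, and without the 3 shortest lists 773. Histone genes are near-identical copies, and reads shared between copies may have been placed at either.

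**Figure D5:**
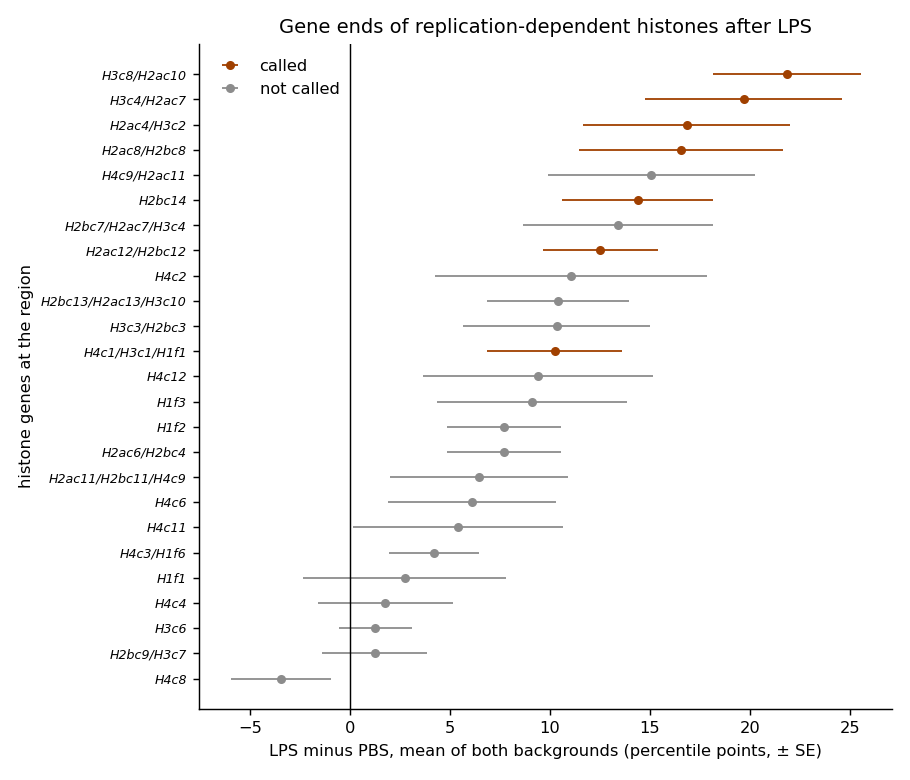
Difference between LPS and PBS lists (mean of both backgrounds, percentile points, bars ± SE) at the 25 gene-end regions of replication-dependent histone genes, with those called by limma in colour. All but H4c8 lie above 0, and the 7 called regions range from 10.2 to 21.9.

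Other genes of the cell cycle and of housekeeping complexes were mostly not called. The cell cycle and replication list had 32 of 36 genes with a gene-end region. The replicative helicase subunits Mcm3 and Mcm5 were called higher (7.51 and 6.08 points), calls lost when any 1 of 7 and 13 lists was left out (adjusted p up to 0.122 and 0.175, both without naive LPS 1). E2f1 was called lower (-4.70 points), a call lost without naive LPS 3 (adjusted p = 0.0659), and its difference was 25.4 by fold enrichment. Cytosolic ribosomal proteins had 68 of 72, with 4 called higher, Rps9 and Rps18 among them, and 1 lower (Rpl9). Mitochondrial ribosomal proteins had 75 of 78, with 3 higher and 0 lower. The proteasome had 33 of 38, with 1 each way, Mediator and RNA polymerase II 43 of 44, with 1 higher, and aminoacyl-tRNA synthetases 35 of 55, with 1 higher (Cars). The housekeeping controls had 13 of 18, with Rpl13a called higher. The calls at Psmd8 (proteasome, lower), Mrpl24 and Polr2f were lost when any 1 of 11, 11 and 9 lists was left out (adjusted p up to 0.0951 and 0.123 with naive LPS 1 left out, and 0.0907 with naive LPS 2 left out), and that of the region shared by Mrpl32 and Psma2 without naive LPS 2 (0.0561). In these lists the medians lay between -0.98 and 2.51.

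Markers of other cell types had a gene-end region for a minority of the listed genes, except for megakaryocyte-erythroid genes. The monocyte-macrophage list had 6 of 14 genes with one, and the list's median was 8.59. The marker levels of that cell type moved with LPS, as given above, and their part in the rises at Cxcl10, Ccl2 and the other inflammatory genes was not tested. Neutrophil genes had 2 of 17, with Il1r2 lower (-23.3 points). Mature lymphocyte genes had 3 of 17, with Cd2 lower, endothelial and stromal genes 5 of 14, with Kdr lower, and megakaryocyte-erythroid genes 12 of 18, with Nfe2 higher and a median of 5.27. The Cd2 and Nfe2 calls were lost when any 1 of 12 and 8 lists was left out (adjusted p up to 0.0887, without naive LPS 2, and 0.115, without naive LPS 1). The Kdr call was lost without naive LPS 1 (0.0535), naive LPS 3 (0.0531) or AF9-experienced PBS 4 (0.0536). The only mast cell gene with a region, of 12, was not called.

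Promoters of the regions that changed differed in their letters. Of the gene ends called higher, 232 had a promoter sequence, and 48.3% of these held a CCAAT box, against 27.5% of the 160 called lower and 36.9% of all 7401. The ETS core was in 26.7% of the rising and 13.1% of the falling promoters, and NRF1 in 3.88% and 9.38%. The NF-kB site was in 2.59% (6 promoters) and 0.625% (1), the AP-1 site in 5.17% and 3.12%, and the octamer in 4.74% (11 promoters) and 0 of 160. GC boxes were in 50.4% and 62.5%. The interferon element was in 2.59% (6 promoters) and 4.38% (7), against 2.53% of all 7401. The cyclic AMP element was in 3.02% and 4.38%, and the TATA box in 7.76% and 8.12%. The PU.1 core was in 26.7% and 20.6%, and the E-box in 8.62% and 6.25%. With the histone regions left out, the CCAAT box was in 46.7% and the octamer in 3.56% of 225 promoters called higher. These shares carry no test.

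Within naive mice, 64 gene ends were called higher after LPS (0.64%, beside 2% of all tested regions) and 40 lower (0.4%, beside 1.22%). Within AF9-experienced mice the counts were 96 higher (0.96%, beside 3.44%) and 80 lower (0.8%, beside 1.74%). Of these, 32 were called higher in both, which is 50% of the naive and 33.3% of the AF9-experienced list, and 17 were called lower in both (42.5% and 21.2%). Of the naive calls, 60 of 64 rises and 39 of 40 falls had the same sign in AF9-experienced mice. The other way round it was 96 of 96 and 76 of 80. A region with no peak in any cut list of 1 injection cannot take the opposite sign, and such regions were not set apart. The share of all gene ends with the same sign in both backgrounds is not given, so these counts are descriptions. By the mean of both backgrounds, 212 rises and 191 falls were called that neither background gave alone.

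These smaller counts depended on which lists entered. Naive rises numbered 29 and 31 with naive PBS 2 or 3 left out, 30 and 37 with naive LPS 2 or 1 left out, and 42 without AF9-experienced PBS 4. Naive falls were 11 without naive PBS 3, 16 without naive PBS 2 or naive LPS 2, 23 without naive LPS 1, 25 without AF9-experienced PBS 4, 26 without naive LPS 3 and 86 without naive PBS 1. AF9-experienced rises were 41, 46 and 53 without AF9-experienced PBS 3, 2 and 4, 59 without AF9-experienced LPS 3 and 161 without naive PBS 1. AF9-experienced falls were 21, 26 and 34 without AF9-experienced PBS 3, 4 and 2, 39, 47 and 51 without AF9-experienced LPS 3, 4 and 2, 52 without naive PBS 4 and 144 without naive PBS 1. Without the 3 shortest lists the naive counts were 177 and 178 and the AF9-experienced counts 340 and 303. A fit of the naive groups alone called 11 and 7.

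Among the gene ends called in naive mice, regions beside Tnfrsf11b (714 bp from an end, strand not given) and Gsto2 (878 bp from the finish) fell. Tnfrsf11b encodes osteoprotegerin, a decoy receptor of the TNF family, and its region chr15:54251333-54252001 gave 41.5, 57.6, 46.0 and 47.5 in naive PBS and 5.94, 0 and 0 in naive LPS lists (difference -46.2, SE 9.60, limma adjusted p = 0.0087). In AF9-experienced mice it gave 30.3 to 40.3 after PBS and 0, 0, 40.7, 23.9 and 34.2 after LPS, and the difference of -17.9 did not pass (limma adjusted p = 0.250). At Gsto2 the naive difference was -18.5 (SE 3.70, limma adjusted p = 0.00670), which became 9.01 by fold enrichment. In AF9-experienced mice, Neurod4 (-30.6) and Gimap8 (-31.5) fell and Pf4, platelet factor 4, rose (23.4 points), the last call being lost when any 1 of 6 lists was left out (adjusted p up to 0.132, without AF9-experienced PBS 4).

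No gene end was called between AF9-experienced and naive mice. After PBS, limma called 0 of 10002 gene ends higher and 0 lower, beside 0% of all tested regions in each direction, with 126 higher and 163 lower at an unadjusted p under 0.05. With library weights, limma called 1 higher and 5 lower. After LPS it called 0 higher (0% of all tested regions) and 0 lower (0.0127% of all tested regions), with 115 and 273 at an unadjusted p under 0.05 and a smallest adjusted p of 0.227. Here 1 gene end was called lower by fold enrichment, with library weights, without the trend and robust options, without AF9-experienced LPS 5 and without naive LPS 1.

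The gene end nearest to a call was the finish of Olfr70 and Tmem8b, chr4:43693658-43694953. It had no peak in any cut PBS list (6 of 8 full ones had 1), 42.8, 49.4 and 34.7 in naive LPS and 13.1, 11.1, 0, 0 and 26.4 in AF9-experienced LPS lists. The AF9-experienced values after LPS were all below the naive ones (difference -32.1, SE 6.63, limma adjusted p = 0.227). This difference was called by fold enrichment (-37.8, adjusted p = 0.0281), with library weights (-37.1, adjusted p = 0.0132), without the trend and robust options (adjusted p = 0.0314) and without AF9-experienced LPS 5 (-36.2, adjusted p = 0.0194). Pla1a, a phospholipase, was the upward region with the smallest p after LPS, at 29.7 ± 4.92 (SD, n = 3) in naive and 58.2 ± 8.87 (n = 5) in AF9-experienced lists, which was not called (limma adjusted p = 0.475).

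After PBS, Traf3, an adaptor that restrains non-canonical NF-kB signalling, stood at 13.3 ± 10.0 (SD, n = 4) in naive and 47.1 ± 12.6 (n = 4) in AF9-experienced lists. The values were 0, 15.5, 13.5 and 24.3 against 49.7, 56.5, 53.6 and 28.7, which did not overlap, but the adjusted p was 1 by limma. Tdrd3 gave 86.2 ± 2.98 and 75.6 ± 2.22, and Shisa8 39.7 ± 7.81 and 11.7 ± 10.4. With library weights, Tdrd3 (-10.9, limma adjusted p = 0.0157) and Shisa8 (-29.6, limma adjusted p = 0.0181) were called lower.

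No difference in the LPS response between the backgrounds was called at a gene end by limma's interaction term, with 0 called in either direction (0% of all tested regions each way), 84 and 143 at an unadjusted p under 0.05 and 0 called in each of the other fits in which it was estimated. The interaction with the smallest p was at Pla1a, where LPS lists differed from PBS lists by -21.6 points (SE 7.58) in naive and by 15.6 (SE 6.66) in AF9-experienced mice.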

How the data were processed

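ATAC-seq of sorted HSPCs was given as 16 narrowPeak lists, 1 per biological replicate, each with 2 technical libraries in the labels (32 samples). Per the submitters' processing notes, FastQC, Trim Galore, BWA, Picard and MACS3 were among the tools and GRCm38 the build, and how technical libraries were combined before peak calling is not given in the sources used here. The authors deposited for each peak a fold enrichment (a ratio), a -log10 p and a -log10 q, the last used only in an alternative. Peaks were called per list.

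Each list was cut to its 19100 strongest autosomal peaks by the deposited -log10 p (ties by fold), which sets every list to 1 length but keeps differences in signal quality. Overlapping peaks were merged, and those present in 3 lists or more entered the tests. Gene-end regions lie within 1 kb of either end of a protein-coding model of RefSeq's GRCm38 table, which gives no exons or UTRs and no strand for some models. Percentile ranks were fitted with limma 3.58.1 in R 4.3.3 (1 mean per group over 16 lists, trend and robust options), with Benjamini-Hochberg adjustment over 23554 regions and a threshold of 0.05, and the fit was checked on simulated data. The LPS effect averaged over backgrounds, the effect in each background, AF9-experienced against naive after each injection and the interaction were estimated. Other steps used Python 3.11.15, pandas 2.3.3 and numpy 2.4.6. Peak lists hold no total read depth, so no counting interval is given. The longest list holds 88816 peaks.

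Regions were named by rule: per contrast the 8 called gene ends with the smallest p in each direction (3 where none was called), up to 4 called members of each of 23 gene lists, and the 5 strongest. Some list members named without values were taken outside it. Some regions that meet the rule are not reported here. The members and lists were chosen with earlier results of these data known. The alternatives were fold-enrichment ranks, log2 of the rank, half-length lists, presence in full lists or at a stricter q, 50% overlap, a lower list minimum, other limma options, a covariate, a replicate block and leaving out lists.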

Additional observations from a re-analysis of the deposited data

Results flagged for a closer look

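Single lists stood apart from their group in the following values, by Dixon's test at the 95% level, which chance passes in about 1 of 20 groups. It was run in 9 groups of library measures and 143 groups of named regions with a peak in every list.

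The median distance from summit to model end was 96 bp in AF9-experienced PBS 1, one of the 3 shortest lists. E2f1 stood at 98.7 in naive PBS 1 and at 87.2 in AF9-experienced LPS 3. Kdr was at 10.2 in AF9-experienced PBS 3, Nap1l4 at 28.9 and Tnfrsf11b at 30.3 in the same list. Flt3 was at 85.7 in naive PBS 4. Junb, at its start-side region, was at 48.6 and Clcf1 at 33.7 in naive PBS 1, the shortest list. Ccl2 was at 40.3 and Socs3 at 73.8 in AF9-experienced PBS 2. The region shared by Mrpl32 and Psma2 was at 90.5 in AF9-experienced LPS 1.

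Peaks on the Y chromosome, which the gene-end regions leave out, numbered 2 in each of naive LPS 1, naive LPS 2 and naive LPS 3, 3 in AF9-experienced LPS 1 and 2 in AF9-experienced LPS 2, against at most 1 in any PBS list. Without these 5 lists, an alternative chosen after seeing the data, 90 gene ends rose and 86 fell after LPS in AF9-experienced mice, beside 96 and 80 with them.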

How the results depend on the processing

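Ranks give no amounts, lists differ in signal, and the files give no depth, so a lower rank can reflect other peaks moving up. Counts below are gene ends called higher and lower. For the mean LPS effect they were 1896 and 291 by fold enrichment, 146 and 101 with lists of 9550 peaks, 536 and 370 with median fold enrichment as a covariate, 66 and 46 with 50% overlap, 1009 and 1159 with library weights and 773 and 801 without the 3 shortest lists. In naive mice they were, in the same order, 20 and 1, 6 and 3, 155 and 72, 11 and 0, 419 and 367, and 177 and 178, and 11 and 7 with the 2 groups fitted alone. In AF9-experienced mice they were 97 and 25, 30 and 19, 222 and 154, 17 and 2, 513 and 572, and 340 and 303. Presence in full lists, or at a -log10 q of at least 5, called 0 and 0 in all 3, and these 0-or-1 values hold less information. AF9-experienced against naive gave 1 and 5 after PBS with library weights, and 0 and 1 after LPS by fold enrichment, with library weights, or without the trend and robust options. The cause of these shifts was not tested.

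Leaving out 1 list in turn gave 208 to 464 higher and 168 to 424 lower for the mean LPS effect, 29 to 84 and 11 to 86 in naive mice, 41 to 161 and 21 to 144 in AF9-experienced mice, and 0 to 1 lower for AF9-experienced against naive after LPS. Replicate numbers did not pair the lists (21 same-number pairs, correlations of -0.215 to 0.231, median -0.0461, 3 over 0.1). With the replicate block the counts were 253 and 202 for the mean effect, 44 and 18 in naive and 64 and 36 in AF9-experienced mice.

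Differences in the share of gene ends with a peak turned sign for LPS in AF9-experienced mice by fold enrichment (9.17) and for LPS in naive mice without the 3 shortest lists (-2.56, and -1.53 to 1.23 with 1 list left out). AF9-experienced against naive after PBS turned by fold enrichment (-2.61), with 9550 peaks (-0.244), within 250 bp (-0.0793) and without the shortest lists (-0.956, and -1.72 to 1.04 with 1 left out). Summit distance differences turned for LPS in naive mice by fold enrichment (3.21 bp), with 9550 peaks (0.25) and within 250 bp (0.167), with -3.75 to 3.33 over left-out lists. In AF9-experienced mice they were 4.6, 0.5 with 9550 peaks and 5.53 without the shortest lists (-2.8 to 5.53), after PBS -9.08 to 0.167, and after LPS 0.2 without the shortest lists (-5.8 to 0.2). Median percentiles turned for LPS in AF9-experienced mice by fold enrichment (14.9) and in naive mice without the shortest lists (-0.455, and -0.154 to 1.25), and after PBS ranged from -0.614 to 0.243.

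Of 125 differences at named gene ends, 51 kept their side of the threshold by fold enrichment, 65 lost it, 1 gained a call and 8 turned: Notch1 (12.6 and, in AF9-experienced mice, 11.6), E2f1 (25.4), Flt3 (19.0 and, in naive mice, 16.1), Fosb (-1.89), Junb (-1.06) and Gsto2 (9.01). With 50% overlap 78 lost it and 6 turned: E2f1 (10.7), Psmd8 (15.5), Pold2 (interaction, -9.71), Tapbp (-3.57), Tnf (-7.09) and Gsto2 (3.16). Presence in full lists turned Cd2 (0.0833), and presence at the stricter q turned Cd2 (0.0833), Zfp467 (0.125), Hoxa10 (0.125) and Clcf1 (0.125 and, in naive mice, 0.25).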
